A study of Mus musculus with 24 samples.

Results

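The genes described here are a list of 10 genes that mark white and brown adipocytes, namely Adipoq, Retn, Lep, Ucp1, Pparg, Fabp4, Lpl, Cidec, Lipe and Cfd. They were chosen by name from knowledge of fat cells and with earlier results of these data in view. The array annotation gave probe sets of their own to 9 of the 10 genes, 13 probe sets out of 22690, while no probe set was listed for Cfd, which encodes the secreted protease adipsin. Fabp4 had 4 probe sets and Lpl 2, and each other measured gene had 1. The 9 genes were read among 12394 genes in all, each gene represented by its probe set with the highest mean level over the arrays.

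RNA from mouse thyroid tissue was hybridised to 24 Affymetrix Mouse430A_2 arrays, each labelled as 1 of 4 tissues. They comprised 9 recurrent tumours, 5 anaplastic thyroid cancers (ATC), 4 papillary thyroid cancers (PTC) and 6 pools of normal thyroid glands. The series title places the tumours in a study of resistance to BRAF inactivation with Met amplification and Hgf overexpression. The labels used here state no genotype, allele, strain, treatment, time or age for any group, nor is it said whether 2 tumours can come from 1 animal, and the tests therefore see the spread of these samples alone, which may be technical. Each normal sample is a pool of glands, so the spread among normal samples is between pools and not between mice. Of the normal pools, 4 carried WT in their titles and 2 carried Cre.

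White adipocytes store triglyceride in a single large droplet and secrete hormones such as adiponectin, resistin and leptin. Brown adipocytes hold many small droplets and burn fatty acid for heat through the mitochondrial uncoupling protein Ucp1. Both cell types depend on the nuclear receptor Pparg, which acts with C/EBP factors. Mice have fat depots in the neck, brown ones among them, and a thyroid gland is dissected from tissue in which fat lies close by.

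Promoter windows of 3 genes are shown because they carry the letters searched for in Adipoq and Ucp1, which had the largest differences from normal in recurrent tumours and ATC, and in Lep, which had the smallest adjusted p of the measured genes in each comparison with normal. Each window runs from 250 bases before to 50 bases after an annotated start, 5′ to 3′ on the strand of the gene, from RefSeq on GRCm38.p6. Capitals mark CCAAT or its reverse complement in Adipoq (chr16:23146286-23146585, plus strand), the nuclear receptor half-site AGGTCA in Ucp1 (chr8:83290098-83290397, plus strand) and the C/EBP palindrome TTGCGCAA in Lep (chr6:29059971-29060270, plus strand).
Adipoq: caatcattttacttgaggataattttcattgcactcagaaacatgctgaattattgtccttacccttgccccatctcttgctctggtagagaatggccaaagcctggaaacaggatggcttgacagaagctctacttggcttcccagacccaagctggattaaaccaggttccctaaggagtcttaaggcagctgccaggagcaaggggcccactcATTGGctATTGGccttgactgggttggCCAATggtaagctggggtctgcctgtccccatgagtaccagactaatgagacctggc
Ucp1: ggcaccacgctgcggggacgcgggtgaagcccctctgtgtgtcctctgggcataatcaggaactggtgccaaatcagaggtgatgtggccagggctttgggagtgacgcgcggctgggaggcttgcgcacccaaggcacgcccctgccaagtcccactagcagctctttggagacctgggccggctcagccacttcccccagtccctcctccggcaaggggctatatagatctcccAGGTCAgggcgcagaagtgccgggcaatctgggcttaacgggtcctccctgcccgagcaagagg
Lep: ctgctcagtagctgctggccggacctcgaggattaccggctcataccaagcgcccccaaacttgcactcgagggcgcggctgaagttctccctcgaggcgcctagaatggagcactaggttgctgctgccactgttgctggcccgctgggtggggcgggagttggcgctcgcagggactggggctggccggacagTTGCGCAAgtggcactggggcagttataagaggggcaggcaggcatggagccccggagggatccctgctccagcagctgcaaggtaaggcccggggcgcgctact

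RefSeq windows were found for 8 of the 10 genes, 12 windows in all, Cfd included and Fabp4 and Lpl not. Both strands were searched for 6 motifs. TTGCGCAA was in 1 of the 12 windows, that of Lep, and in 0.183% of 32851 windows of the mouse genome. AGGTCA was in 3 windows, those of Ucp1 and Pparg, and in 16.3% of all windows. Its direct repeat AGGTCANAGGTCA, which contains AGGTCA, was in 0 of the 12 and in 0.0396% of all windows. CCAAT was in 3 windows, of Adipoq and Pparg, against 37.4% of all windows. TATAAA was in 1 window, of Pparg, against 13.6%, and the E-box CACGTG was in 1 window, of Lipe, against 7.15%. These matches describe the letters in the windows only.

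The deposited values are log2 intensities, normalised by the authors with RMA, so a difference of 1 is a doubling of signal, and the level of one probe set cannot be set against that of another. Medians of the 24 arrays lay between 7.38 and 7.58. No pair of arrays held identical values, and the highest correlation among the 276 pairs was 0.993. Array titles fall into series: 3 recurrent tumours, 2 ATCs, 4 PTCs and 4 normal pools are titled JK, 6 recurrent tumours and 3 ATCs carry a bare number, and 2 normal pools carry Cre. The labels do not say what these title series stand for.

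One normal pool stood apart before any comparison was made. Normal pool 5, a Cre-titled pool, lay below the median of the other 5 pools for each of the 9 measured genes, and by over 1 on the log2 scale for 8 of them, while 193 of the 12394 genes (1.56%) lay that far below. Ucp1 had the most negative difference of all 12394 genes, at -5.68. The difference was -2.52 for Retn, -2.20 for Cidec, -1.88 for Fabp4, -1.84 for Adipoq, -1.80 for Lep, -1.63 for Pparg, -1.45 for Lipe and -0.88 for Lpl. Each marker gene was centred on its mean over arrays. The mean level of 13 macrophage markers was -0.07 in pool 5, against -1.74 to -1.28 in the other 5 pools. That of 5 C-cell markers was 1.90 in pool 5, against 3.75 to 3.95. Only Chgb (5.42, against 8.65 to 9.49) and Scg2 (8.10, against 12.24 to 12.59) were below the other pools. Chga (13.56), Grp (11.22) and Syp (6.42) lay within the range of the other pools. The mean of 8 thyroid follicular markers was 2.65 in pool 5, within the 2.47 to 2.93 of the other pools. Results without pool 5 are given below.

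All 9 measured adipocyte genes had lower mean levels in recurrent tumours, in ATC and in PTC than in the normal pools. In the model fitted across all genes (limma with Benjamini-Hochberg adjustment, called under an adjusted p of 0.05), 8 of the 9 fell in recurrent tumours, 7 in ATC and 5 in PTC, and none rose. Lep, Ucp1, Cidec, Fabp4 and Lipe were called in each of the 3 comparisons. The share of all genes called lower was 19.3% in recurrent tumours, 19.1% in ATC and 8.03% in PTC, and the share called higher was 14.5%, 15.1% and 6.16%. Every tumour lay below every pool for 3 of the 9 genes in recurrent tumours, 7 in ATC and 7 in PTC, beside 5.12%, 19.2% and 19.7% of all genes. The median difference over the 9 genes was -2.54 in recurrent tumours, -2.61 in ATC and -2.31 in PTC, beside -0.03, -0.08 and -0.01 over all genes tested. The 3 comparisons share the same 6 normal pools. In these bulk samples, fewer adipocytes and less RNA per adipocyte cannot be told apart.

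**Figure D1:**
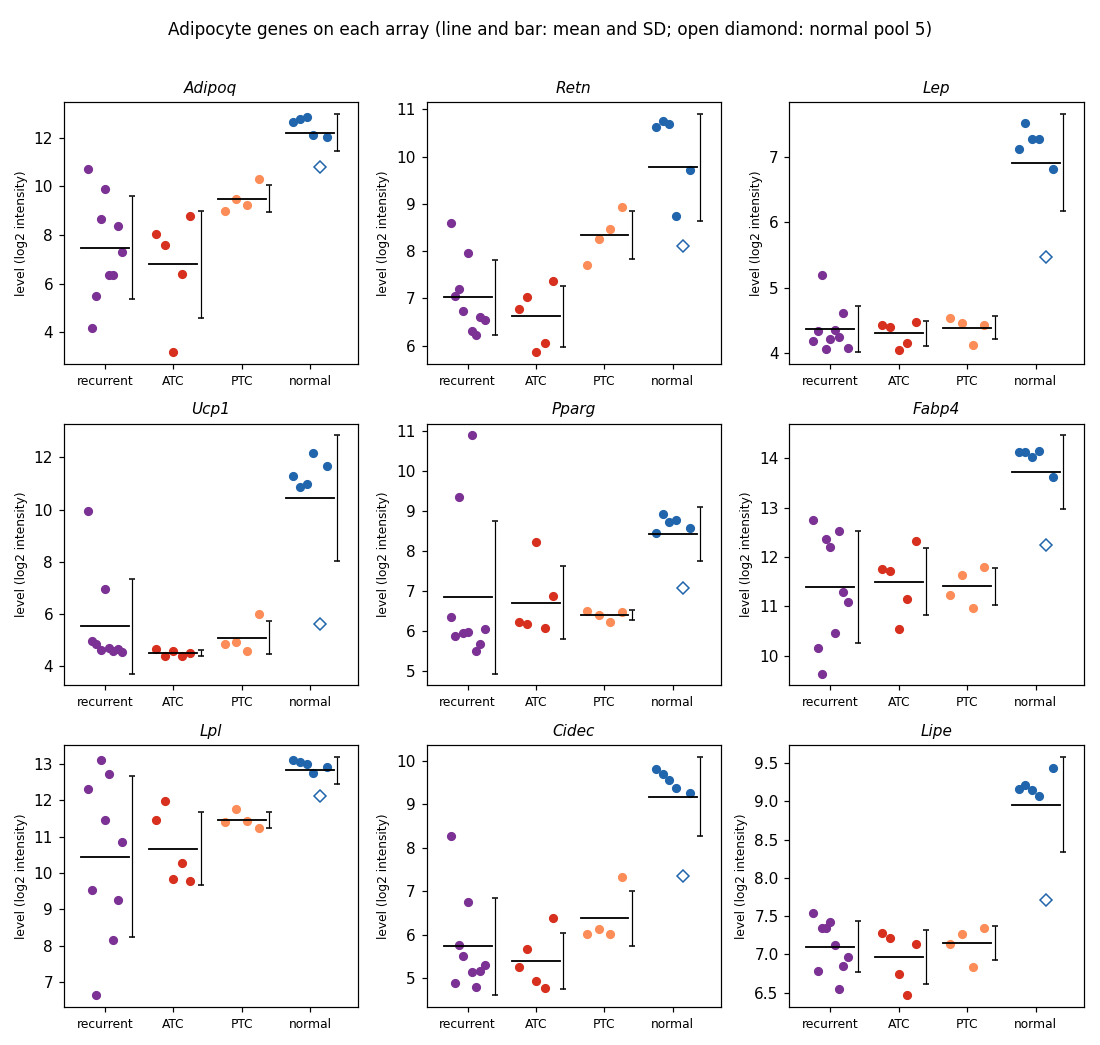
Level of each of the 9 measured adipocyte genes (log2 intensity, vertical axis, its range set for each gene) on each array, in recurrent, ATC, PTC and normal samples, with the group mean as a line, the SD as a bar, and normal pool 5 as an open diamond. For Adipoq, Lep and Lipe the tumour points all lie below pool 5, and for Pparg and Lpl some recurrent tumours reach above all normal pools.

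Adipoq (probe set 1422651_at), the gene of adiponectin, an adipocyte hormone that raises insulin sensitivity, had levels of 4.18 (lowest), 7.31 (median) and 10.72 (highest) in the 9 recurrent tumours. The 5 ATCs had 8.04, 7.60, 3.18, 6.38 and 8.79, and the 4 PTCs had 9.0, 9.47, 9.22 and 10.29. The 6 normal pools had 12.65, 12.78, 12.87, 12.13, 10.81 and 12.05. Each of the 18 tumours lay below the lowest pool, and recurrent tumours and ATCs spread wider than the pools, while PTCs did not. Means were 7.48 ± 2.12 in recurrent tumours, 6.80 ± 2.20 in ATC, 9.49 ± 0.56 in PTC and 12.21 ± 0.77 in normal pools (SD, n = 9, 5, 4 and 6). The difference from normal was -4.73 ± 0.86 (SE) in recurrent tumours, a 26.6-fold lower signal (adjusted p = 0.000191), and -5.42 ± 0.98 in ATC, 42.8-fold lower (adjusted p = 0.000192). One array moved the ATC value: without ATC 3, at 3.18, the difference was -4.51. It is not known whether the lowest levels, 3.18 in ATC 3 and 4.18 in a recurrent tumour, were above background, so both folds are uncertain. In PTC the difference of -2.72 ± 1.05 missed the threshold (adjusted p = 0.0890), although the groups did not overlap.

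Retn (1449182_at) encodes resistin, a hormone made by white adipocytes in mice. Its level was 6.23 (lowest), 6.74 (median) and 8.59 (highest) in recurrent tumours. It was 6.78, 7.02, 5.86, 6.06 and 7.36 in the ATCs and 7.70, 8.26, 8.46 and 8.94 in the PTCs, against 10.62, 10.76, 10.68, 8.74, 8.10 and 9.72 in the normal pools. All ATCs lay below the pools, while the highest recurrent tumour and 3 of the 4 PTCs lay above pool 5. PTC 4 (8.94) also lay above pool 4 (8.74). Retn fell in recurrent tumours (difference -2.75, SE 0.42, adjusted p = 2.73e-05) and in ATC (difference -3.15, SE 0.48, adjusted p = 2.91e-05). The PTC difference was -1.43 (SE 0.51, adjusted p = 0.0644) and was called when normal pool 5 (-1.76, adjusted p = 0.0143) or normal pool 4 (-1.64, adjusted p = 0.0435) was left out.

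Lep (1422582_at), the gene of leptin, the satiety hormone secreted in proportion to fat mass, varied little within the tumour groups. The SD was 0.35 in recurrent tumours, 0.19 in ATC and 0.18 in PTC, against 0.74 in the normal pools. Recurrent tumours had 4.06 (lowest), 4.25 (median) and 5.19 (highest), the ATCs 4.43, 4.40, 4.05, 4.16 and 4.47, and the PTCs 4.54, 4.46, 4.13 and 4.43. The normal pools had 7.12, 7.52, 7.27, 7.27, 5.47 and 6.82. No tumour reached any pool. Lep fell in recurrent tumours (difference -2.54, SE 0.23, adjusted p = 2.57e-08), in ATC (difference -2.61, SE 0.26, adjusted p = 1.93e-07) and in PTC (difference -2.52, SE 0.28, adjusted p = 2.26e-06).

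Ucp1 (1418197_at), the uncoupling protein that defines brown adipocytes, had levels of 4.53 (lowest), 4.69 (median) and 9.93 (highest) in recurrent tumours. The ATCs had 4.65, 4.38, 4.59, 4.39 and 4.52, the PTCs 4.84, 4.93, 4.57 and 6.01, and the normal pools 11.28, 10.86, 10.98, 12.18, 5.60 and 11.66. In 5 pools the level was above 10, and pool 5 was close to the tumours. Recurrent tumour 1 (9.93), recurrent tumour 5 (6.96) and PTC 4 (6.01) lay above pool 5, and the other 15 tumours lay below it. The difference from normal was -4.89 ± 0.84 (SE) in recurrent tumours (adjusted p = 0.000107), -5.92 ± 0.96 in ATC (adjusted p = 6.09e-05) and -5.34 ± 1.03 in PTC (adjusted p = 0.00104). The deposited values carry no detection call, so it is not known whether the tumour signal below 5 was above background, for Ucp1 or for Lep, and no fold is given for either. Without pool 5 these differences were -5.86, -6.88 and -6.31.

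**Figure D2:**
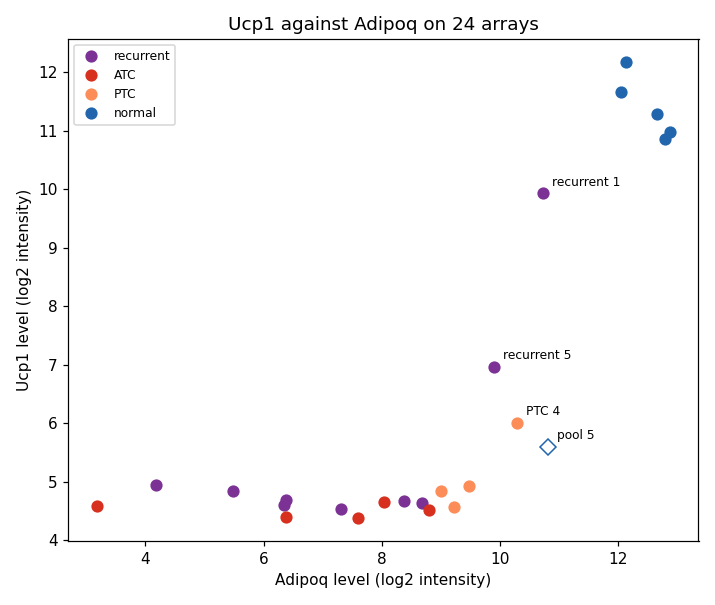
Ucp1 level (vertical axis, log2 intensity) against Adipoq level (horizontal axis, log2 intensity) on the 24 arrays, coloured by tissue, with normal pool 5 as an open diamond. Normal pools other than pool 5 lie at the upper right, most tumours have Ucp1 below 5 over a wide range of Adipoq, and recurrent tumour 1 (10.72 for Adipoq and 9.93 for Ucp1) lies nearest the pools.

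Pparg (1420715_a_at), the nuclear receptor that directs fat cell formation, behaved differently among the recurrent tumours. Its level was 5.49 (lowest), 5.97 (median) and 10.89 (highest) there. It was 6.21, 6.16, 8.22, 6.07 and 6.86 in the ATCs and 6.5, 6.40, 6.22 and 6.46 in the PTCs, against 8.45, 8.92, 8.71, 8.77, 7.07 and 8.56 in the normal pools. Recurrent tumours 3 (9.34) and 6 (10.89) lay above the highest pool, and ATC 3 lay above pool 5, while the other 15 tumours lay below all pools. No comparison with normal was called: the difference was -1.58 ± 0.66 (SE) in recurrent tumours (adjusted p = 0.0685), -1.71 ± 0.76 in ATC (adjusted p = 0.0853) and -2.02 ± 0.81 in PTC (adjusted p = 0.102). The recurrent difference was called without recurrent tumour 6 (-2.08, adjusted p = 0.00128), without recurrent tumour 3 (-1.89, adjusted p = 0.0206) and without normal pool 5 (-1.84, adjusted p = 0.0449). Among JK-titled arrays alone Pparg was called in ATC (-2.52, adjusted p = 0.015) and in PTC (-2.32, adjusted p = 0.0101), but not in recurrent tumours (-1.53, adjusted p = 0.0636). Among arrays not titled JK it was called neither in ATC (-0.77, adjusted p = 0.788) nor in recurrent tumours (-1.15, adjusted p = 0.673). In the fit of both groups alone it was called in ATC (adjusted p = 0.00462) and in PTC (adjusted p = 0.000282).

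Fabp4 (1417023_a_at), the fatty acid carrier of the adipocyte cytoplasm, is also made by macrophages and capillary endothelium. Recurrent tumours had 9.64 (lowest), 11.28 (median) and 12.74 (highest), the ATCs 11.76, 11.71, 10.55, 11.14 and 12.33, and the PTCs 11.23, 11.63, 10.96 and 11.79. The normal pools had 14.12, 14.13, 14.02, 14.14, 12.24 and 13.62. No tumour reached the other 5 pools, and 4 of the 18 tumours lay above pool 5. Fabp4 fell in recurrent tumours (difference -2.33, SE 0.44, adjusted p = 0.00028), in ATC (difference -2.21, SE 0.50, adjusted p = 0.00158) and in PTC (difference -2.31, SE 0.54, adjusted p = 0.00499). Its 3 further probe sets were also called lower in all 3 comparisons when every probe set was tested on its own.

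Lpl (1415904_at) encodes lipoprotein lipase, which frees fatty acids from circulating triglyceride for uptake by fat and muscle, and macrophages make it too. Recurrent tumours spread from 6.65 (lowest) over 10.86 (median) to 13.12 (highest), the widest range of the group after Adipoq. The ATCs had 11.47, 11.99, 9.83, 10.27 and 9.78, the PTCs 11.39, 11.76, 11.44 and 11.23, and the normal pools 13.11, 13.06, 13.00, 12.76, 12.12 and 12.92. Recurrent tumour 4 lay just above the highest pool, and recurrent tumours 1 (12.31) and 6 (12.72) lay above pool 5. Lpl fell in recurrent tumours (difference -2.38, SE 0.74, adjusted p = 0.0155). The difference was -2.16 ± 0.85 in ATC (adjusted p = 0.0522) and -1.37 ± 0.90 in PTC (adjusted p = 0.373), where no tumour overlapped the pools. The ATC difference was called without ATC 2 (-2.49, adjusted p = 0.0382), in the fit of both groups alone (adjusted p = 0.000548) and with array weights (adjusted p = 1.25e-05). It was not called among JK-titled arrays alone (-1.25, adjusted p = 0.411) or among the other arrays (-2.56, adjusted p = 0.249). The further Lpl probe set, tested on its own, was called in recurrent tumours (-1.88, adjusted p = 0.0324) and in ATC (-2.02, adjusted p = 0.045), and had -1.71 in PTC (adjusted p = 0.196).

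Cidec (1452260_at), a lipid droplet protein that lets droplets fuse and grow, had levels of 4.80 (lowest), 5.31 (median) and 8.27 (highest) in recurrent tumours. The ATCs had 5.27, 5.68, 4.93, 4.77 and 6.38, the PTCs 6.02, 6.13, 6.03 and 7.33, and the normal pools 9.81, 9.70, 9.56, 9.36, 7.36 and 9.26. Only recurrent tumour 1 of the 18 tumours lay above pool 5. Cidec fell in recurrent tumours (difference -3.44, SE 0.46, adjusted p = 6.36e-06), in ATC (difference -3.77, SE 0.53, adjusted p = 1.25e-05) and in PTC (difference -2.80, SE 0.57, adjusted p = 0.0016).

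Lipe (1422820_at), hormone-sensitive lipase, releases fatty acids from stored fat. Its level was 6.55 (lowest), 7.12 (median) and 7.54 (highest) in recurrent tumours, 7.28, 7.21, 6.74, 6.47 and 7.13 in the ATCs and 7.13, 7.26, 6.84 and 7.35 in the PTCs. The normal pools had 9.16, 9.22, 9.15, 9.07, 7.71 and 9.44. No tumour reached any pool. Lipe fell in recurrent tumours (difference -1.86, SE 0.22, adjusted p = 1.01e-06), in ATC (difference -2.0, SE 0.25, adjusted p = 2.85e-06) and in PTC (difference -1.81, SE 0.26, adjusted p = 7.09e-05).

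**Figure D3:**
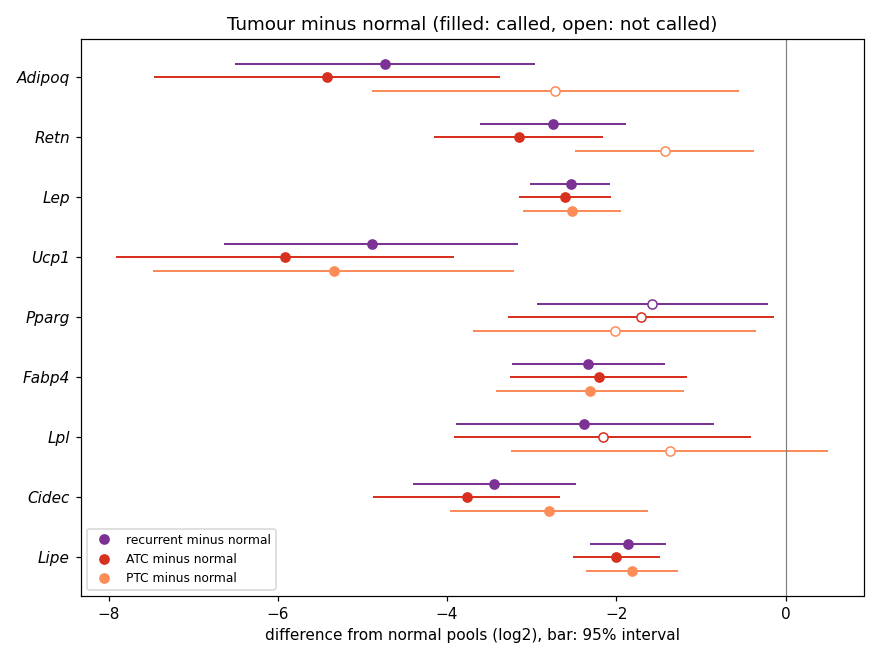
Difference of each adipocyte gene from the normal pools (log2, horizontal axis) in recurrent tumours, ATC and PTC, with 95% intervals as bars, filled points for called differences and open points for those not called. All 27 points lie below 0, the lowest being Ucp1 in ATC at -5.92, and the 7 open points belong to Pparg in all 3 comparisons, Lpl in ATC and PTC, and Adipoq and Retn in PTC.

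Tumours and pools were unequally spread over the title series, and only the JK series holds both, so the differences were recomputed within it and, separately, between the other series. Among JK-titled arrays alone, all 9 genes had lower means in each comparison, between -5.81 and -1.53 in recurrent tumours, -6.81 and -1.25 in ATC and -6.24 and -1.53 in PTC, and 8 were called in each, beside 22.2%, 17.2% and 13.6% of all genes called lower. Among the other arrays, where bare-number tumours were set against the 2 Cre-titled pools and title and tissue cannot be told apart, all 9 were lower as well, between -3.62 and -1.15 in recurrent tumours and between -5.32 and -0.77 in ATC, and 2 were called in recurrent tumours and 3 in ATC, beside 3.12% and 3.91% of all genes called lower. No PTC lies outside the JK titles. A sign of RNA quality moved with the titles: the 3'-minus-5' difference of the Gapdh control probe sets was -0.02 to 0.17 in bare-number recurrent tumours and 0.06 to 0.15 in bare-number ATCs, and 0.36 to 1.07 in JK recurrent tumours, 0.82 to 0.96 in JK ATCs and 1.11 to 1.60 in PTCs, against 0.64 to 0.98 in normal pools. Its part in the differences was not tested. Without normal pool 5, 9 genes were called in recurrent tumours, 7 in ATC and 6 in PTC, beside 18.4%, 18.5% and 7.84% of all genes called lower.

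Between tumour types the adipocyte genes differed little beyond their spread. Retn was the only gene called, lower in ATC than in PTC (difference -1.72, SE 0.53, adjusted p = 0.0272), and 17.2% of all genes were called in that comparison, 9.35% lower. That call was lost without PTC 2, PTC 3, PTC 4, ATC 3 or ATC 4, and it was lost within JK-titled arrays alone. The ATC-minus-PTC difference of Adipoq was -2.7 (95% interval -4.96 to -0.44, adjusted p = 0.0937). Adipoq and Retn were the 2 genes of the 9 with every ATC below every PTC, as were 17.5% of all genes. No adipocyte gene was called between recurrent tumours and ATC, where 4.32% of all genes were called and no member had an unadjusted p under 0.05, or between recurrent tumours and PTC, where 21.8% were called and Retn alone had an unadjusted p under 0.05. The recurrent-minus-PTC difference of Retn was -1.32 (interval -2.30 to -0.33, adjusted p = 0.0505). It was called without recurrent tumour 1 or recurrent tumour 5.

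For Ucp1 the intervals between tumour types were wide, from -0.81 to 2.86 for recurrent minus ATC, from -1.53 to 2.43 for recurrent minus PTC and from -2.79 to 1.63 for ATC minus PTC. They do not show that the tumour types had equal levels. For Cidec the ATC-minus-PTC difference was -0.97 (interval -2.19 to 0.25, adjusted p = 0.282). Normal pools had the highest mean of every measured gene, and no pair of tumour types next to each other in the order of means was called for any of them.

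**Figure D4:**
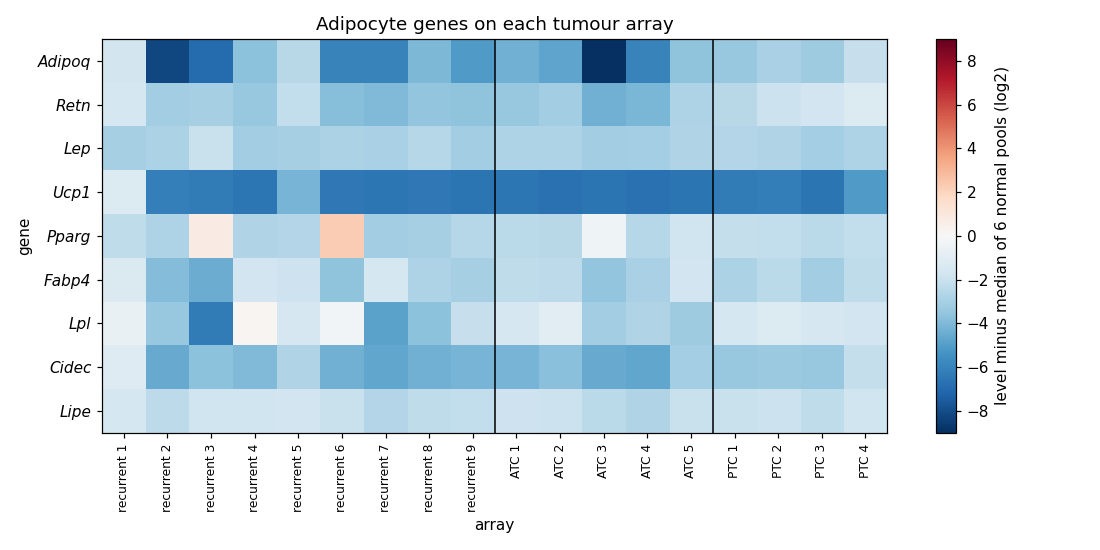
Level of each adipocyte gene on each tumour array minus the median of the 6 normal pools (log2, colour scale, blue for lower and red for higher), with arrays ordered recurrent, ATC and PTC along the horizontal axis and genes down the vertical axis. Ucp1 is dark blue on most arrays but not on recurrent tumour 1, and the red cells are Pparg on recurrent tumours 3 and 6, with a faint one for Lpl on recurrent tumour 4.

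The recurrent tumours varied among themselves in a gene-specific way. Recurrent tumour 1 had the highest level of the group for Adipoq (10.72), Retn (8.59), Ucp1 (9.93), Fabp4 (12.74), Cidec (8.27) and Lipe (7.54). Its Lep level was 4.19, but Lep ran only from 4.06 to 5.19 in the group, where signal may not be above background. Recurrent tumour 5 came next for Adipoq (9.90), Retn (7.96), Ucp1 (6.96) and Cidec (6.75). Recurrent tumours 3 and 6, with the highest Pparg, had Adipoq at 5.49 and 6.37 and Ucp1 at 4.85 and 4.69. Over the 36 pairs of measured genes, the median Pearson correlation was 0.77 across the 24 arrays (0.20 to 0.94) and 0.36 across the 9 recurrent tumours (-0.74, for Lpl and Lep, to 0.96). These are descriptions, since the arrays share groups and normalization and the larger value includes the difference between tumours and pools.

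Recurrent tumour 6 was singled out after its values were seen, for high levels of some brown fat and lipid synthesis genes without Ucp1. Cidea, a lipid droplet protein of brown fat, was at 13.64, against 7.11 to 12.09 in the normal pools. Elovl3, a fatty acid elongase of brown fat and skin glands, was at 13.99, against 4.48 to 7.50 in the pools. Pank1, a kinase of coenzyme A synthesis, was at 12.14, Mgll, a monoglyceride lipase, at 13.11, and Plin2, a droplet coat protein of many cell types, at 14.50, each above the highest pool. Fasn (13.68), Scd1 (14.74), Elovl6 (14.13) and Acly (14.29), genes of fatty acid synthesis, also lay above the highest pool. All these genes were picked for being high. Other fat genes were not: Cox8b was at 11.49, against 9.90 to 12.60 in the pools, Cox7a1 at 10.06, against 9.43 to 11.28, and Thrsp at 6.98, against 9.76 to 12.70. Pck1 was at 5.09, against 7.76 to 11.01 in the pools, and Dgat2 at 7.39, against 9.99 to 11.81. Ucp1 was at 4.69 and Adipoq at 6.37. The mean centred level of 19 genes of fatty acid and triglyceride synthesis was 1.44, against 0.48 to 1.81 in the pools.

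Genes that work beside these 10 were followed in 7 lists. Mostly the 3 called genes of largest difference per list and comparison are named. A gene left unnamed in a comparison may therefore also have been called there. Of 17 measured genes of thermogenesis and brown fat identity, 8 fell and 1 rose in recurrent tumours, 11 fell in ATC and 6 fell in PTC, with median differences of -1.08, -1.61 and -1.45. These counts and those of the next lists stand beside 19.3%, 19.1% and 8.03% of all genes called lower, and 14.5%, 15.1% and 6.16% called higher. Cidea fell in recurrent tumours (difference -2.99, adjusted p = 0.0198), in ATC (difference -4.01, adjusted p = 0.00727) and in PTC (difference -4.70, adjusted p = 0.00882). Cox7a1, a muscle and brown fat subunit of cytochrome oxidase, fell in recurrent tumours (difference -2.86), in ATC (-3.51) and in PTC (-3.05). Ppargc1a, the coactivator that drives mitochondrial biogenesis, fell in recurrent tumours (difference -3.66, adjusted p = 0.000292) and in ATC (difference -4.0, adjusted p = 0.000476). Slc27a2, a fatty acid transport protein, fell in PTC (difference -1.87, adjusted p = 0.0183). Many follicular cell markers also fell, as given below, but their levels did not follow this list on every array. The mean centred level of the thermogenesis genes was -0.03 in pool 5, against 1.11 to 1.41 in the other pools. That of the follicular markers was 2.65 in pool 5, against 2.47 to 2.93. In recurrent tumour 6 the means were 1.54 for thermogenesis and -2.12 for follicular markers.

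Of 19 measured genes of fatty acid and triglyceride synthesis, 12 fell in recurrent tumours, 16 in ATC and 8 in PTC, and none rose. The medians were -1.74, -2.66 and -1.41. Thrsp, a nuclear protein that promotes lipid synthesis, fell in recurrent tumours (difference -5.30, adjusted p = 4.77e-10), in ATC (difference -5.60, adjusted p = 3.29e-09) and in PTC (difference -5.02, adjusted p = 1.03e-07). Scd1, the desaturase that makes monounsaturated fatty acids, fell in recurrent tumours (difference -3.30), in ATC (-4.75) and in PTC (-4.43), and Pck1, which supplies glycerol for triglyceride in fat, fell in recurrent tumours (-4.34), in ATC (-5.08) and in PTC (-3.84). Dgat2, which completes triglyceride synthesis, fell in PTC (difference -3.89, adjusted p = 0.000197).

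Of 13 measured genes of lipid droplets and lipolysis, 7 fell in recurrent tumours, 9 in ATC and 4 in PTC, and none rose, with medians of -1.25, -1.52 and -1.54. Ces1d, a carboxylesterase of liver and fat that hydrolyses triglyceride, fell in recurrent tumours (difference -4.93, adjusted p = 0.00202) and in ATC (difference -6.48, adjusted p = 0.000591). G0s2, an inhibitor of the triglyceride lipase Pnpla2, fell in recurrent tumours (difference -2.40, adjusted p = 0.00108) and in PTC (difference -2.59, adjusted p = 0.00782). Ces1f, a related carboxylesterase, fell in recurrent tumours (difference -2.64, adjusted p = 1.64e-05) and in ATC (difference -2.8, adjusted p = 4.4e-05), and Mgll, which cleaves monoglycerides, fell in ATC (difference -2.81, adjusted p = 0.00209). Pnpla3, a droplet lipase, fell in PTC (difference -2.94, adjusted p = 0.00738), as did Plin4, a droplet coat protein (difference -2.26, adjusted p = 0.0486).

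The other 4 lists were mixed in direction. Of 12 measured genes of fatty acid uptake and transport, 3 fell and 2 rose in recurrent tumours, 3 fell and 3 rose in ATC, and 1 rose in PTC. Fabp5, the fatty acid carrier of epithelia and macrophages, rose by 2.36 in recurrent tumours (adjusted p = 1.1e-05) and by 2.33 in PTC (adjusted p = 0.0004). Angptl4, a secreted inhibitor of lipoprotein lipase, rose by 1.85 in recurrent tumours (adjusted p = 7.45e-05) and by 2.14 in ATC (adjusted p = 6.74e-05). Apoc1, an apolipoprotein, fell in recurrent tumours (difference -2.59, adjusted p = 0.0262) and in ATC (difference -3.74, adjusted p = 0.00607), and Apoe, an apolipoprotein that macrophages also make, rose by 1.73 in ATC (adjusted p = 0.0449).

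Of 14 measured adipogenic transcription factors, 3 fell and 3 rose in recurrent tumours, 4 fell and 2 rose in ATC, and 2 rose in PTC. The lower shares in recurrent tumours and ATC are near those of all genes. Klf5 rose by 2.03 in recurrent tumours (adjusted p = 0.000812) and by 2.18 in ATC (adjusted p = 0.00143), and Cebpb, an early C/EBP factor of fat cell formation, rose by 1.54 (adjusted p = 0.000213) and 1.3 (adjusted p = 0.00331). Klf15, a late factor, fell in recurrent tumours (difference -1.58, adjusted p = 0.0273) and in ATC (difference -2.04, adjusted p = 0.0136). In PTC the genes that rose were Cebpd, by 2.13 (adjusted p = 0.000391), and Cebpa, by 1.53 (adjusted p = 0.0112). These factors also act in epithelia and macrophages.

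Of 14 measured adipokines and receptors, 3 fell and 3 rose in recurrent tumours, 1 fell and 4 rose in ATC, and 1 fell and 1 rose in PTC. Nrg4, a growth factor secreted by brown fat, fell in recurrent tumours (difference -2.12, adjusted p = 0.000471), in ATC (difference -2.43, adjusted p = 0.00048) and in PTC (difference -2.33, adjusted p = 0.00344). Cdh13, a cell surface receptor for adiponectin, rose by 1.85 in recurrent tumours (adjusted p = 2.9e-05) and by 2.69 in ATC (adjusted p = 1.94e-06). Tnfrsf11b, the decoy receptor osteoprotegerin, rose by 2.86 in recurrent tumours (adjusted p = 8.51e-05) and by 1.91 in ATC (adjusted p = 0.00965), and Agt, the angiotensin precursor, rose by 3.07 in PTC (adjusted p = 0.000338).

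Of 12 measured genes of adipocyte progenitors, 2 fell and 4 rose in recurrent tumours, 2 fell and 3 rose in ATC, and 1 fell and 1 rose in PTC. Dlk1, which restrains fat cell formation and is also a fetal and endocrine tumour gene, had levels of 14.24, 14.29, 14.36 and 14.11 in the PTCs, against 6.22 to 7.11 in the normal pools, and rose by 7.72 (adjusted p = 9.44e-08). Gata3, a transcription factor that holds back fat cell formation and is abundant in parathyroid, fell in PTC (difference -2.7, adjusted p = 0.00785). The matricellular protein Ccn5 rose by 1.55 in recurrent tumours (adjusted p = 0.0117) and by 2.06 in ATC (adjusted p = 0.00405). Pdgfra, a receptor of fibroblasts and progenitors, rose by 1.51 in recurrent tumours (adjusted p = 0.00937), where the peptidase Dpp4 fell (difference -2.1, adjusted p = 2.99e-05). In ATC, Bmp7, a growth factor that promotes brown fat, rose by 2.28 (adjusted p = 0.000914) and Pdgfrb, a receptor of mural cells and fibroblasts, rose by 1.74 (adjusted p = 0.000141).

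**Figure D5:**
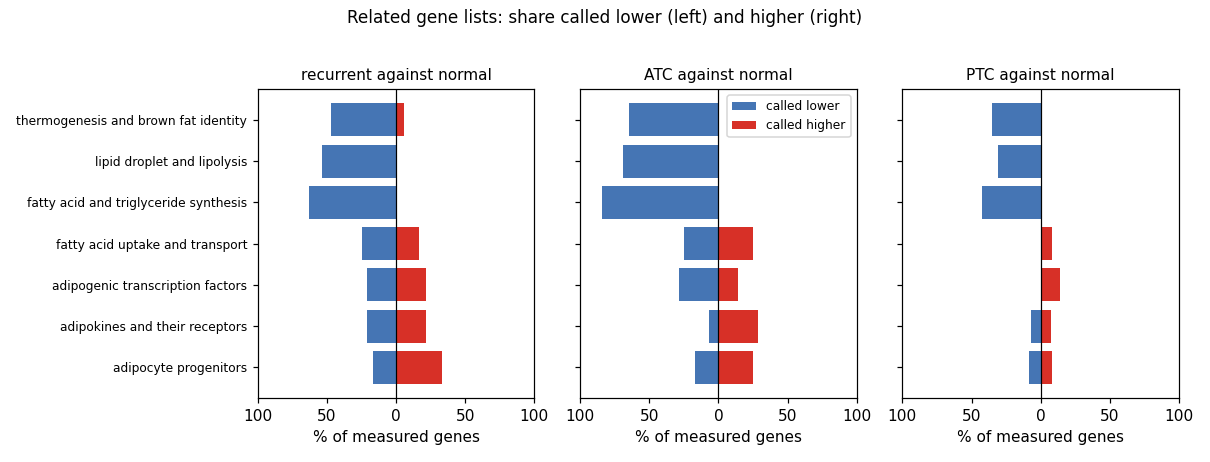
Share of the measured genes of each of 7 related lists (percent, horizontal axis) called lower (blue, left of 0) and called higher (red, right of 0) than in normal pools, in recurrent tumours, ATC and PTC. Synthesis, lipid droplet and thermogenesis lists extend mostly to the left, up to 16 of 19 synthesis genes in ATC, and the other 4 lists reach both ways in recurrent tumours and ATC.

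Markers of other cells of the gland were counted in the same comparisons. Of all genes, 19.3%, 19.1% and 8.03% were called lower in recurrent tumours, ATC and PTC, and 14.5%, 15.1% and 6.16% higher. Of 8 measured thyroid follicular markers, 7 fell in recurrent tumours, 7 in ATC and 4 in PTC, where 1 rose, and their mean centred level ran from -2.34 to 0.81 in recurrent tumours, -2.09 to 0.39 in ATC and 0.96 to 1.66 in PTC, against 2.47 to 2.93 in normal pools. Of 5 C-cell markers, 4 fell in each comparison, and of 3 parathyroid markers, 3 fell in recurrent tumours, 3 in ATC and 1 in PTC. Of 13 macrophage markers, 6 rose in recurrent tumours, 11 in ATC and 2 in PTC. Of 7 fibroblast markers, 5 rose in recurrent tumours, 4 in ATC and 2 in PTC. Of 10 endothelial markers, 5 fell in recurrent tumours, 2 in PTC and 1 in ATC, the last below the share of all genes. None of 8 skeletal muscle markers was called in these comparisons by limma, but muscle levels varied widely between arrays. The mean centred level of the muscle markers ran from -5.43 to 3.42 in recurrent tumours and -2.20 to 1.75 in ATC. It was -1.04 to 0.86 in PTC and -1.08 to 1.68 in normal pools. Recurrent tumour 4, at 3.42, had Cox7a1 at 11.93 and Lpl at 13.12, the highest of the group. Recurrent tumour 2, at -5.43, had the group's lowest Cox7a1, 3.96, and Lpl at 9.53. The part of these cell types in the adipocyte gene differences was not tested.

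The genes outside the list whose levels followed the mean of the 9 adipocyte genes most closely over the 24 arrays were Thrsp (Pearson r = 0.971), Pck1 (0.966), Lgals12 (0.956), Tmem45b (0.947), Scg3 (0.933), Ces1f (0.931), Sycp3 (0.927), Fmn2 (0.923), Chgb (0.918) and Cxcl11 (0.913). Thrsp had 9.76 in normal pool 5, against 12.25 to 12.70 in the other pools, so it shared that pool's lower level. For Adipoq alone the nearest genes were Cyp2e1 (0.953), Ifi27l2a (0.916), Pck1 (0.899), Boc (0.895) and Tmem45b (0.890). For Ucp1 alone they were Pck1 (0.949), Dner (0.930), Lgals12 (0.921), Thrsp (0.920) and Gys2 (0.919). These correlations include the difference between tumours and pools and are given as descriptions.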

How the data were processed

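RNA of 24 mouse thyroid samples was measured on Affymetrix Mouse430A_2 arrays. The deposited log2 values were made with RMA and Partek, per the submitters' processing notes, with versions not given in the sources used here. RMA sets quantiles equal across arrays, so a shift shared by all genes would not be seen, and precision is limited by how many arrays each group has. Of 22690 probe sets, 20393 had 1 gene symbol, 691 had several and 1606 had none. Symbols were updated by gene ID with a RefSeq table for 20364 probe sets and kept from the annotation for 29. Where a gene had several probe sets, the one with the highest mean over arrays stood for it, giving 12394 genes.

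Groups were the tissue labels. The 4 group means were fitted with limma 3.58.1 in R 4.3.3 (lmFit, contrasts.fit and eBayes), two-sided, with Benjamini-Hochberg adjustment over all 12394 genes, and a gene was called under 0.05. Differences are on the log2 intensity scale, and folds are 2 raised to the absolute difference. The 10 genes and the related lists were chosen with earlier results of these data known, so the differences are no independent evidence for the lists. The text names all 10 genes, the 3 called members of largest difference per related list and comparison with normal, and the nearest genes by correlation. Markers of other cell types are given as counts, and genes chosen after their values were seen are marked so. Marker and list means average genes centred on their mean over arrays. Alternatives changed the samples fitted, the title series as a block, the probe set rule, a filter on low values, the scaling, the spread model, array weights and each array left out. On simulated data for recurrent tumours against normal pools over 12394 genes, 66% of genes lowered 2-fold and 92% of those lowered 4-fold were called. Genes that had not been lowered made up 9.71% of those calls. That share was 3.87% for ATC against normal, 0% for PTC against normal and 23.33% for recurrent tumours against ATC. Promoter windows came from RefSeq on GRCm38.p6.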

Additional observations from a re-analysis of the deposited data

Results flagged for a closer look

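In 36 groups of values of the 9 adipocyte genes, the highest or lowest array stood apart from the rest in 10. Chance flags about 1 group in 20 when groups are independent. These groups are not, since the 9 genes share arrays and correlate (median r 0.77), so the count is no test. Normal pool 5 was the low array in 7 of the 10, at 5.60 for Ucp1, 12.24 for Fabp4, 7.07 for Pparg, 7.36 for Cidec, 12.12 for Lpl, 5.47 for Lep and 7.71 for Lipe. Recurrent tumour 1 was the high array for Ucp1, at 9.93. Recurrent tumour 3 was the high array for Lep, at 5.19. PTC 4 was the high array for Cidec, at 7.33. The difference between 3'- and 5'-end Gapdh probe sets, a sign of RNA quality, was 0.98 in pool 5, against 0.64 to 0.85 in the other pools, and its part in the pool's lower adipocyte levels was not tested.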

How the results depend on the processing

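Under every alternative run, the adipocyte genes measured in it (9, or 8 under the filter on low values, which removed Lep) had lower means than the normal pools in recurrent tumours, ATC and PTC. How many were called depended on the samples and the spread model. In recurrent tumours against normal, 8 were called, 8 to 9 with 1 array left out, 7 in the fit of both groups alone, 9 with array weights and 2 among arrays not titled JK. The main fit called 19.3% of all genes lower, both groups alone 14.7%, array weights 27.9% and arrays not titled JK 3.12%. In ATC against normal, 7 were called, 7 to 8 with 1 array left out, 9 in the fit of both groups alone, 9 with array weights and 3 among arrays not titled JK. The shares of all genes called lower, in the same order as for recurrent tumours, were 19.1%, 28.2%, 33.5% and 3.91%. In PTC against normal, 5 were called, 5 to 6 with 1 array left out, 9 in the fit of both groups alone, 8 among JK-titled arrays and 9 with array weights. Here the main fit called 8.03% of all genes lower, both groups alone 24.5%, JK-titled arrays 13.6% and array weights 26.9%. Lpl was lost in recurrent tumours in the fit of both groups alone (adjusted p = 0.0515). In ATC against PTC, 1 was called, 0 to 1 with 1 array left out, 0 with title series or bare-number titles as a block, 0 among JK-titled arrays and 3 with array weights. In recurrent against PTC, 0 were called in the main limma fit, 0 to 1 with 1 array left out, and 1 with the mean of probe sets, the filter on low values or every probe set on its own. In recurrent against ATC, 0 were called under every alternative. The cause of these changes was not tested.

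Over all genes, 4194 were called in recurrent tumours against normal and 503 among arrays not titled JK. In ATC against normal the main count was 4245, beside 759 among arrays not titled JK and 7357 with array weights. In PTC against normal it was 1758, beside 5676 for both groups alone, 3156 among JK-titled arrays and 6370 with array weights. In ATC against PTC it was 2127, beside 4587 for both groups alone, 6318 with array weights and 1345 without PTC 2. In recurrent against PTC it was 2706, beside 1345, 5574 and 1757 for the same changes. In recurrent against ATC it was 535, beside 99 for both groups alone, 933 among JK-titled arrays, 41 among the other arrays, 1360 with array weights and 286 to 844 with 1 array left out.

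Differences between tumour types changed sign under some alternatives, none of them called before or after. For Adipoq, recurrent minus ATC was -1.02 among JK-titled arrays and -0.22 to 1.18 with 1 array left out. For Ucp1, ATC minus PTC was 0.32 with title series and 0.01 with bare-number titles as a block, and recurrent minus PTC was -0.10 to 0.76 with 1 array left out. For Fabp4, ATC minus PTC was -0.12 with bare-number titles as a block and -0.15 for a further probe set, and -0.11 to 0.33 with 1 array left out. Its recurrent-minus-ATC difference was 0.15 with array weights, 0.32 among arrays not titled JK and 0.31 for a further probe set, and -0.35 to 0.11 with 1 array left out. Its recurrent-minus-PTC difference was 0.27 with array weights, 0.16 and 0.07 for further probe sets, 0.05 with the mean of probe sets, 0.03 with median centring and 0.05 with title series as a block, and -0.18 to 0.20 with 1 array left out. For Lep, ATC minus PTC was 0.03 among JK-titled arrays, 0.07 with bare-number titles and 0.23 with title series as a block, and 0.03 after quantile normalization again. Its recurrent-minus-ATC difference was -0.02 with array weights and -0.04 to 0.11 with 1 array left out. Its recurrent-minus-PTC difference was 0.19 among JK-titled arrays, 0.16 with bare-number titles and 0.33 with title series as a block, 0.02 with median centring, 0.08 after quantile normalization again, and -0.12 to 0.03 with 1 array left out. For Lipe, ATC minus PTC was 0.10 among JK-titled arrays and 0.04 with title series as a block, and recurrent minus ATC was -0.03 among JK-titled arrays. Its recurrent-minus-PTC difference was 0.07 among JK-titled arrays, 0.15 with bare-number titles and 0.20 with title series as a block, 0.06 after quantile normalization again, and -0.15 to 0.02 with 1 array left out. For Lpl, ATC minus PTC was 0.28 among JK-titled arrays. Its recurrent-minus-ATC difference was 0.57 with array weights, 0.97 among arrays not titled JK, 0.14 for the further probe set and -0.55 to 0.26 with 1 array left out. For Pparg, ATC minus PTC was -0.21 among JK-titled arrays and -0.07 to 0.47 with 1 array left out. Its recurrent-minus-ATC difference was -0.74 with array weights, -0.38 among arrays not titled JK and -0.37 to 0.51 with 1 array left out, and its recurrent-minus-PTC difference was -0.16 with array weights and -0.06 to 0.61 with 1 array left out.

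No paired analysis was possible because the labels give no replicate numbers that pair samples across tissues, and those used here only name arrays in deposit order.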
